A study of Mus musculus with 18 samples.

Results

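Peaks of ATF4 chromatin immunoprecipitation with sequencing were examined at 31 genes of the endoplasmic reticulum (ER) that fold secretory proteins, remove misfolded ones, or sense their accumulation. The genes were taken from a list of names, and all 31 were among the 21631 protein-coding genes with positions on the chromosomes of the peak lists. The cells were primary immature neurons from mouse embryos (embryonic day 14), cultured for 2 days in medium with fetal bovine and horse serum. They were kept untreated (control) or given 10 mM 2-deoxyglucose (2-DG), a glucose analogue, for 6 h. Strain and genotype are not given in the sources used here, and no label names an allele. Of 18 samples, 8 immunoprecipitations entered the comparison, 4 control and 4 2-DG. The comparison addresses which of these genes carry called ATF4 peaks after 2-DG and not without it.

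Each sample has 1 deposited peak list, with 3461 to 15240 distinct peaks. The 2-DG list of replicate 1 is the longest. Read depth is unknown, and where a list has no peak the site may still have been below its calling limit. The antibody label reads none for the 4 control samples, whereas the design text says that untreated and treated neurons alike were precipitated with anti-ATF4. An untreated state and an immunoprecipitation without antibody cannot be told apart from these labels. A further 2 lists carry a title and a description that name opposite treatments, and their values are given separately. Peak lists hold no expression values, so the neuronal identity of the cells was not checked here.

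The unfolded protein response is the program by which cells answer misfolded protein in the ER. IRE1 (Ern1) splices the Xbp1 messenger RNA, ATF6 (Atf6) is cut to release a transcription factor, and PERK raises ATF4 translation through phosphorylation of eIF2. The ER stress response element (ERSE), bound by ATF6 with NF-Y, is the classic promoter element of ER chaperone genes. ATF4 with a C/EBP partner is known to bind the C/EBP-ATF response element (CARE), found in genes of amino acid metabolism and stress signalling. 2-DG disturbs N-linked glycosylation, on which folding of many ER proteins depends.

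Few of the ER genes had a peak at a gene end, and the peaks that recurred were in the 2-DG lists. An end peak is a called interval touching a window of 2000 bp on either side of either gene end (mm10). Such a peak was called at 7, 4, 3 and 3 of the 31 genes in 2-DG replicates 1 to 4, and at 1, 0, 0 and 0 in control replicates 1 to 4. The mean number per list was 4.25 ± 1.89 (SD, n = 4) after 2-DG and 0.25 ± 0.5 (SD, n = 4) without it, and the groups did not overlap. Nor did they overlap over all protein-coding genes, at 2.43% to 5.64% per 2-DG list and 1.26% to 2.05% per control list. The mean share of all protein-coding genes with an end peak was 3.58% per 2-DG list, against 1.69% per control list. The corresponding shares of the 31 genes were 13.7% and 0.807%. In at least 1 2-DG list an end peak was called at 7 ER genes (Hspa5, Atf6, Herpud1, Xbp1, Ero1a, Dnajb9 and Dnajb11), beside 8.26% of all genes. The other 24 had none in any of the 8 lists, beside 88.9% of all genes. The genes were chosen with results of these data known, so these counts carry no test.

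**Figure D1:**
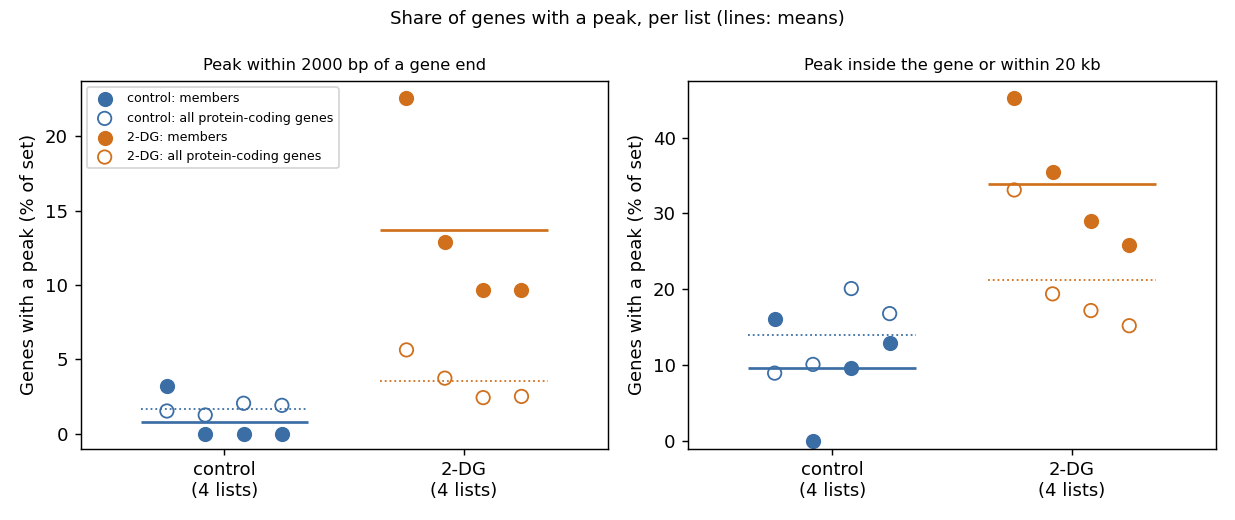
Percent of the 31 ER genes (filled circles) and of all protein-coding genes (open circles) with a peak in each list, at gene ends (left) and inside the gene or within 20 kb (right); each circle is 1 list and lines are means. At gene ends the 4 2-DG lists lie between 9.68% and 22.6% for the ER genes, and 3 of the 4 control lists lie at 0.

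Widening the window to the whole gene and 20 kb on either side gave 14, 11, 9 and 8 of the 31 genes in the 2-DG lists and 5, 0, 3 and 4 in the control lists. That is 10.5 ± 2.65 (SD, n = 4) against 3 ± 2.16 (SD, n = 4), again without overlap. The mean share of all protein-coding genes was 21.2% per 2-DG list and 14.0% per control list. Over all genes the groups overlapped, at 15.2% to 33.1% per 2-DG list and 8.95% to 20.1% per control list. Gene length, which sets the size of this window, had a median of 18197 bp in the 31 genes and 17329 bp in all genes. Over the 8 lists, 21 of the 31 genes had at least 1 peak in the wide window, beside 55.7% of all genes, and 10 had none. The 10 were Sdf2l1, Pdia3, Calr, Edem2, Edem3, Manf, Syvn1, Derl2, Derl3 and Ero1b.

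Recurrence in 1 treatment was set as a peak in at least 75% of its lists (3 or 4 of 4) and in no list of the other. At gene ends, Atf6 and Hspa5 met it for 2-DG, 2 of 31 genes beside 1.13% of all genes. No ER gene met the reverse rule, which 0.0231% of all genes met. With control peaks allowed, Herpud1 joined them, 3 of 31 beside 1.83%. With 1 2-DG list left out, the rule asks for 3 of 3 lists, which is stricter. Without 2-DG replicate 1, 2 or 3, Hspa5 did not meet it and 1 gene was left. Of all genes, 125, 128 and 222 then met it, against 245 with 4 lists. Without control replicate 1, Herpud1 met the rule and the count was 3, beside 291 of all genes. In the wide window Atf6, Pdia4 and Ero1a met the rule for 2-DG, 3 of 31 beside 3.29%, and all 3 had a peak in 4 of 4 2-DG lists. None met the reverse there, beside 0.194% of all genes. Without control replicate 1 the count was 4, with Herpud1 added, beside 855 of all genes. Without control replicate 4 it was 6, with Hspa5, Sel1l and Derl1 added, beside 923 of all genes. Adding the 2 lists of conflicting labels raises the rule to at least 4 lists of a treatment. With them placed by their titles, 1 gene (Atf6) met the end rule and 3 the wide one, beside 156 and 430 of all genes. With them placed by their descriptions, 0 met either, beside 16 and 71 of all genes. With control peaks allowed, Hspa5, Herpud1, Sel1l and Derl1 brought the number to 7 of 31 beside 12.2%. Counting peaks inside the gene alone, 0 of 31 met the rule for 2-DG beside 1.88% of all genes, and with control peaks allowed Herpud1 and Sel1l did, beside 6.28%.

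**Figure D2:**
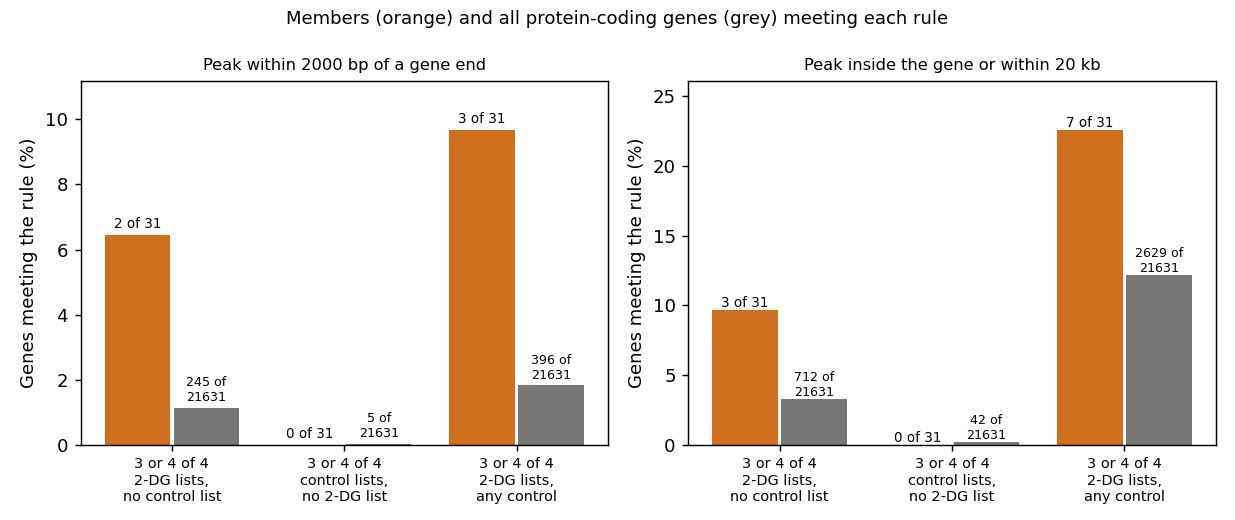
Percent of the 31 ER genes (orange) and of 21631 protein-coding genes (grey) that meet each recurrence rule, at gene ends (left) and inside the gene or within 20 kb (right); labels give the counts. The end rule for 2-DG without control was met by 2 of 31 ER genes and by 245 genes in all.

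No gene passed a per-gene test of lists with against lists without an end peak. In a two-sided Fisher's exact test over 21631 genes, 0 had a Benjamini-Hochberg adjusted p below 0.05, and the lowest adjusted p was 1. The smallest p that 4 lists against 4 can give is 0.0286, and 124 genes (0.573%) reached it, all with more 2-DG lists. Atf6 was the 1 ER gene among them (4 of 4 against 0 of 4 lists, Fisher's exact unadjusted p = 0.0286, adjusted p = 1). In the wide window 330 genes (1.53%) reached that p with more 2-DG lists, Atf6, Pdia4 and Ero1a among them, each with an adjusted p of 1. With that smallest p and an adjustment over 21631 genes, numbers such as 124 and 330 leave no gene able to pass. The adjusted test therefore cannot decide for any gene. The series is said to have 3 independent replicates, while each group here has 4 lists, and no label ties a list to a culture. These p-values therefore measure only the spread between lists, which may be technical.

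Gene windows can hold several peaks, so overlapping peaks of the 8 lists were merged into regions, a step chosen after the data were seen. The ER genes had 36 regions inside them or within 20 kb. Of these, 7 (19.4%) were called in at least 3 of 4 2-DG lists and no control list, beside 4.45% of the 21513 regions near protein-coding genes. They lay at Hspa5, Pdia4, Sel1l, Derl1, Atf6 and at Ero1a, which had 2 of them. Of the 36, 5 (13.9%) were called in 4 of 4 2-DG lists and no control list, beside 2.08% of regions near genes. In at least 3 of 4 control lists and no 2-DG list, 0 of 36 regions were called, beside 0.0976%. Regions called in 1 list only made up 22 of the 36 (61.1%), beside 72.5% of regions near genes. Regions called in 2-DG lists alone made up 25 of the 36, beside 52.2%, and regions called in both groups made up 3 (Hsp90b1, Dnajc3 and Herpud1), beside 14.8%.

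**Figure D3:**
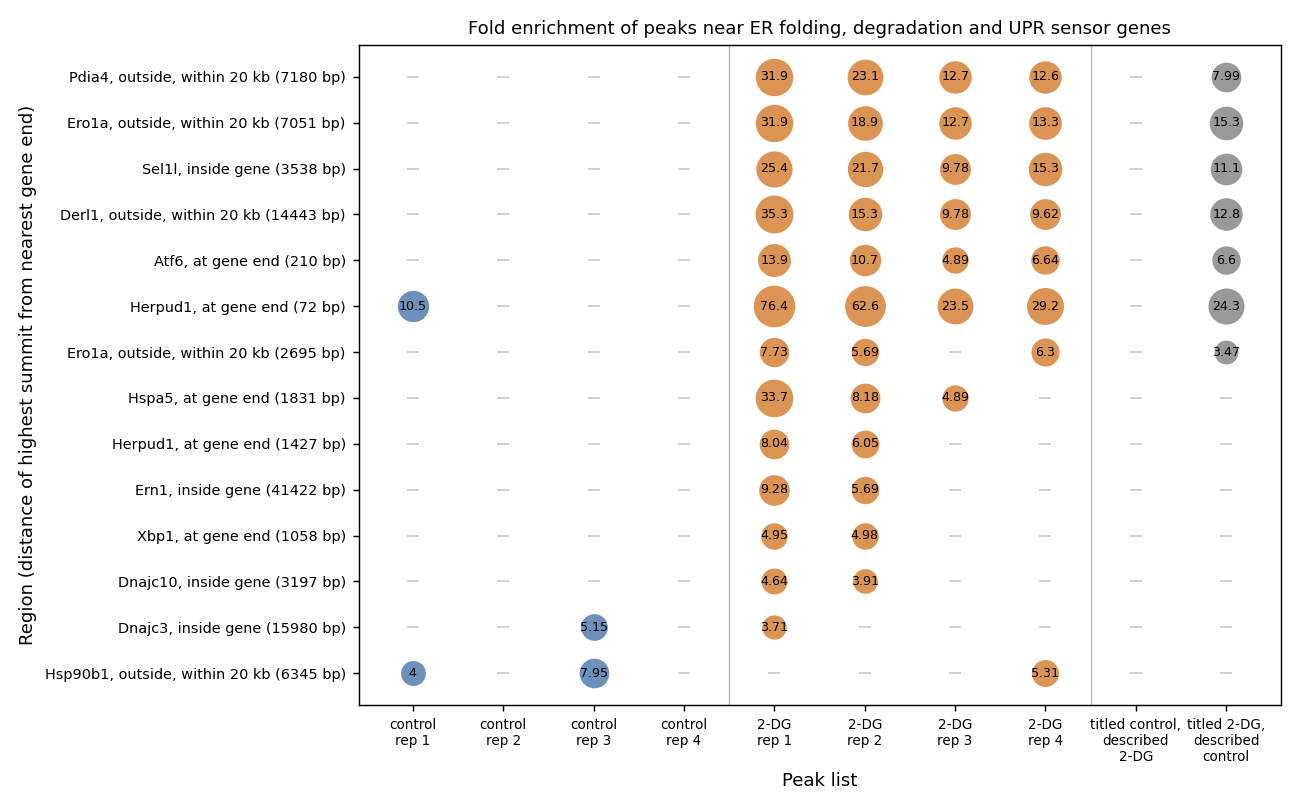
Authors' fold enrichment over local background (number and dot area) at each region of the ER genes called in 2 or more of the 8 compared lists; columns are lists, blue control, orange 2-DG, grey the pair with conflicting labels, and a dash is no peak. Regions at Pdia4, Ero1a, Sel1l, Derl1, Atf6 and Herpud1 were called in 4 of 4 2-DG lists, and of these only the Herpud1 region was also called in a control list.

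Among chaperones and co-chaperones, Hspa5 was the 1 gene of 10 with a recurrent end peak. Hspa5 encodes BiP, the main ATP-driven chaperone of the ER lumen, and lies at chromosome 2, 34772090 to 34776529 (mm10). Its region at 34769987 to 34770562 had a fold enrichment of 33.7, 8.18 and 4.89 in 2-DG replicates 1 to 3, with no peak in replicate 4 or in any control list. Fold here is the authors' value for the peak over its local background, used to rank peaks within a list and not to compare lists. The peak ranked 153 by fold of 15240 in replicate 1, 1109 of 7369 in replicate 2 and 2677 of 6371 in replicate 3. These are percentiles 99.0, 84.4 and 49.5 of their lists, so the peak ran from the strongest to the middle. The summits lay 1831 to 1891 bp upstream of the gene start, within 60 bp of each other, and so close to the 2000 bp limit. With windows of 500 or 1000 bp Hspa5 had no end peak. A control peak of fold 6.36 in replicate 4 lay elsewhere, inside the neighbouring gene Rabepk and 9518 bp outside the higher-coordinate end of Hspa5. It took Hspa5 out of the recurrence rule in the wide window. The list titled 2-DG but described as control also had a peak there, of fold 6.6.

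The stretch just before the Hspa5 start, which holds an exact match to the ERSE letters, had no peak in any of the 8 lists. It is shown because it is the textbook ER stress promoter. These are the 250 bases upstream of the start as RefSeq gives them for GRCm38.p6, 5′ to 3′, with the ERSE letters (CCAAT and CCACG with 9 bases between, searched on both strands) in capitals:
Hspa5, chr2:34771840-34772089, plus strand: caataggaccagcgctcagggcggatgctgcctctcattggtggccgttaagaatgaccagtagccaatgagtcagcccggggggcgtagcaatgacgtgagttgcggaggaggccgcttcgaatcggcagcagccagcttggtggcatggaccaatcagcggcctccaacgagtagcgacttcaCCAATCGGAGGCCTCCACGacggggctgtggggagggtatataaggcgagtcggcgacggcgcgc

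Other chaperone genes had scattered, mostly single-list peaks. Dnajb9 (ERdj4), a co-chaperone of BiP, had a peak of fold 5.88 in 2-DG replicate 1 alone, with its summit 134 bp upstream of the start. Dnajb11 (ERdj3), another BiP co-chaperone, had a peak of fold 6.19 in 2-DG replicate 1 alone, 1946 bp outside its higher-coordinate end, where the gene finishes. Hsp90b1, encoding the ER chaperone GRP94, had no end peak. Its region 6345 to 6399 bp outside the gene, inside the neighbouring gene Ttc41, was called in control replicates 1 (fold 4.0) and 3 (fold 7.95) and in 2-DG replicate 4 (fold 5.31). This was the region with more control than 2-DG lists among those called more than once.

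Dnajc3 (p58IPK), which restrains PERK, had a weak region inside the gene in control replicate 3 (fold 5.15) and 2-DG replicate 1 (fold 3.71). It had a further peak 5883 bp outside in 2-DG replicate 1 (fold 4.64). Dnajc10 (ERdj5), a disulfide reductase that acts in degradation, had a region inside the gene in 2-DG replicates 1 and 2, with folds of 4.64 and 3.91. Creld2 and Hyou1, 2 further genes of the ER stress response, each had 1 flanking peak in a control list and none in a 2-DG list. Sdf2l1, a BiP-associated factor, and Manf, a secreted ER stress protein, had none in either.

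Disulfide enzymes showed recurrent peaks at Ero1a and Pdia4, all of them outside the 2000 bp windows. Ero1a encodes the oxidase that recharges protein disulfide isomerases and lies at chromosome 14, 45283087 to 45318572. Its stronger region, at 45325444 to 45325937, had folds of 31.9, 18.9, 12.7 and 13.3 in 2-DG replicates 1 to 4 and no control peak. These peaks ranked 172, 270, 215 and 288 in their lists, at percentiles 95.0 to 98.9. The summits lay 7044 to 7059 bp upstream of the Ero1a start, within 15 bp of each other. They were nearer to Psmc6, a proteasome ATPase gene, 4200 bp away.

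A weaker Ero1a region at 45321152 to 45321431, with summits 2647 to 2695 bp upstream, had folds of 7.73, 5.69 and 6.30 in 2-DG replicates 1, 2 and 4. At the start itself there were 2 peaks near the lower limit of their lists, of fold 3.65 in 2-DG replicate 4 and 3.40 in 2-DG replicate 1. All 4 Ero1a regions were called in 2-DG lists alone. The paralogue Ero1b had no peak within 20 kb in the 8 lists.

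Pdia4 (ERp72), a protein disulfide isomerase gene at chromosome 6, 47796141 to 47813512, had a region at 47788693 to 47789190. Its folds were 31.9, 23.1, 12.7 and 12.6 in 2-DG replicates 1 to 4, with no control peak. The ranks were 172, 204, 215 and 315, and the summits fell within 30 bp of each other. The summits lie 7176 to 7206 bp past the gene's finish, which for this minus-strand gene is its lower-coordinate end. The nearest annotated gene of any kind was Rny1, a Y RNA gene, 781 bp away, and the nearest other protein-coding gene was Zfp786, 26575 bp away. P4hb had 2 flanking regions, each in 1 2-DG list (folds 4.98 and 3.91), and Pdia6 had 1 in control replicate 1 (fold 3.64). Pdia3 had none.

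Of the lectin chaperones, which hold glycoproteins during folding, Calr had no peak in its window. Canx had a flanking peak in control replicate 4 (fold 4.24) and another in 2-DG replicate 3 (fold 4.89), 9112 and 16692 bp outside the gene.

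Among the 10 degradation genes, Herpud1 had the strongest peak of the whole group of ER genes. HERPUD1 is an ER membrane protein of the HRD1 degradation complex. The gene lies at chromosome 8, 94386429 to 94395371, and the region at 94385813 to 94386923 crosses its start. Fold enrichment was 76.4, 62.6, 23.5 and 29.2 in 2-DG replicates 1 to 4, with ranks of 26, 31, 83 and 73. Control replicate 1 also had a peak there, of fold 10.5 and rank 146 of 3461, and the other 3 control lists had none. That list was the 1 control list with any end peak at an ER gene.

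The 2-DG summits at Herpud1 lay 65 to 84 bp upstream of the start and the control summit 192 bp upstream. Herpud1 was the only gene of the 27 with a RefSeq promoter window whose window had a peak in more than 1 2-DG list. Windows run from 250 bases before to 50 after the start, and 0.724% of 17274 genes had one with a peak in at least 3 of 4 2-DG lists, control peaks allowed. Without a control peak, 0 of the 27 had one, beside 0.492%. The promoter is shown because the peak lies on it. It holds the CARE letters (TGATGNAA) on the minus strand, at -112 to -105, and an ERSE-II (ATTGG and CCACG with 1 base between) at -52 to -42, both in capitals, with positions counted from the start and negative before it:
Herpud1, chr8:94386179-94386428, plus strand: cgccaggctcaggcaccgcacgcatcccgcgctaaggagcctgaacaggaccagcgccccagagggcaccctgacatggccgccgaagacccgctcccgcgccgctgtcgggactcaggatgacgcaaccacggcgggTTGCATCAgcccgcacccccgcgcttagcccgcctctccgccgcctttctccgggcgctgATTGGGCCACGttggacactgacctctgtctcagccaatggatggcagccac

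Herpud1 was the 1 gene of these 27 with CARE letters in the window, which 3.97% of 32817 RefSeq promoter windows hold. ERSE-II letters were in 2 of the 27, Herpud1 and Dnajb11 (at 8 to 18 bp past the start), and in 0.0366% of all windows. Herpud1 summits in the 2-DG lists lay 21 to 40 bp from the CARE letters and 13 to 32 bp from the ERSE-II letters. A match is a string of letters and not a measured site. A further Herpud1 region inside the gene, with summits 1427 and 1538 bp past the start, had folds of 8.04 and 6.05 in 2-DG replicates 1 and 2.

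ERSE letters were in the windows of 10 of the 27 genes, against 0.119% of all windows, 39 in number. The ER genes are counted once each, also where a gene has several windows, as Derl2 has, while the share over all counts windows. The 11 matches in the 10 genes are given on the strand of the motif, with positions relative to the start and the fixed letters in capitals, because they are what these promoters share:
Hspa5, -65 to -47: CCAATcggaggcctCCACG
Hsp90b1, -212 to -194: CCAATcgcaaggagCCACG
Hsp90b1, -107 to -89: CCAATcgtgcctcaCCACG
Dnajc3, -105 to -87: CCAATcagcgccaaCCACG
Pdia6, -98 to -80: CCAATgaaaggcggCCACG
Calr, -162 to -144: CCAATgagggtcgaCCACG
Canx, -145 to -127: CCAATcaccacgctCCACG
Creld2, -126 to -108: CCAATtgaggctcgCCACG
Syvn1, -44 to -26: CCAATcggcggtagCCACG
Derl3, -156 to -138: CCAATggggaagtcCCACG
Ero1b, -201 to -183: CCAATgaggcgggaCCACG

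None of these 10 promoter windows had a peak in any 2-DG or control list. Among all 39 windows with ERSE letters, 0 had a peak in a 2-DG list and 1 had a peak in a control list. A 2-DG peak was called in 438 of all 32817 windows (1.33%), so 0 of 39 is near the share over all windows. CRE letters (TGACGTCA) and UPRE letters (TGACGTGG) were in the windows of 0 of the 27 genes, and in 1.79% and 0.676% of all windows. The E box CACGTG, searched for comparison, was in 3 (Calr, Derl3 and Dnajb9), beside 7.15% of all, and the single ERSE part CCACG, which overlaps both elements, was in 24, beside 32.8% of all. The absence of letters says nothing on binding outside these windows. Manf, Hyou1, Derl1 and Atf6 had no entry in the promoter table.

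**Figure D4:**
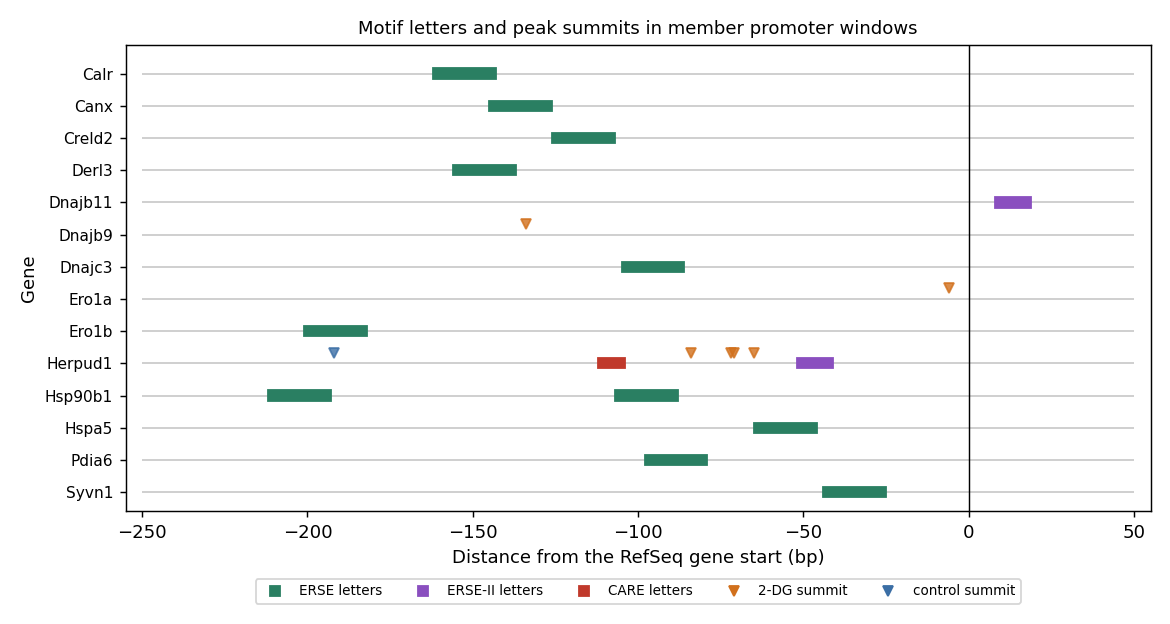
Promoter windows of the ER genes that hold ERSE, ERSE-II or CARE letters (coloured boxes) or a peak summit (triangles, orange 2-DG and blue control), by distance from the RefSeq gene start in bp. The 4 2-DG summits at Herpud1 lie between its CARE and ERSE-II letters, and the 10 promoters with ERSE letters carry no summit.

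Sel1l, which encodes the adaptor of the HRD1 ubiquitin ligase, lies at chromosome 12, 91806043 to 91849157, on the minus strand. A region at 91845337 to 91846152, inside the gene and 3538 to 3571 bp past its start, had folds of 25.4, 21.7, 9.78 and 15.3 in 2-DG replicates 1 to 4. The ranks were 259, 230, 355 and 228, and no control list had a peak there. The 4 summits fell within 33 bp. Sel1l had another peak inside the gene in control replicate 4 (fold 4.24), 17391 bp from its lower-coordinate end, which took Sel1l as a gene out of the recurrence rule. Exon and intron positions were not used here.

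Derl1, encoding a channel-forming derlin of ER-associated degradation, lies at chromosome 15, 57869502 to 57892418. A region at 57906642 to 57907087 had folds of 35.3, 15.3, 9.78 and 9.62 in 2-DG replicates 1 to 4, with ranks of 140, 377, 355 and 534. The summits fell within 15 bp of each other, 14438 to 14453 bp outside the higher-coordinate end. Tbc1d31 was nearer, 4824 bp away. A control peak of fold 3.89 in replicate 4 lay elsewhere, 4731 bp outside Derl1. A window of 10 kb held that control peak and not the 2-DG region, and so turned the direction for Derl1.

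The remaining degradation genes had little. Os9, a lectin that hands glycoproteins to the HRD1 complex, had a peak inside the gene in control replicate 1 (fold 5.09) and a flanking one in 2-DG replicate 4 (fold 3.65). Edem1, a mannosidase-like factor, had a peak inside the gene in 2-DG replicate 1 alone (fold 5.57). Edem2, Edem3, Syvn1 (HRD1), Derl2 and Derl3 had none within 20 kb in the 8 lists.

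All 3 sensor or effector genes had wide-window peaks in 2-DG lists and none in control lists. Of all genes, 44.2% had such a peak in at least 1 2-DG list, 35.5% in at least 1 control list and 55.7% in at least 1 of the 8. These shares leave many genes of the genome with 2-DG peaks and no control peak. For Xbp1 and Ern1 the peaks came from 2 lists each. Atf6 lies at chromosome 1, 170704457 to 170868585. Its region at 170868614 to 170869005 had folds of 13.9, 10.7, 4.89 and 6.64 in 2-DG replicates 1 to 4, with ranks of 702, 697, 2677 and 1116. The summits lay 155 to 210 bp outside the higher-coordinate end of the gene, within 55 bp. The gene's strand is not given in the tables used, and the long noncoding RNA gene Gm9929 overlaps the region. Within its lists this peak spanned percentiles 49.5 to 95.3, with a mean of 78.7. The mean was 77.7 at the weaker Ero1a region and 94.7 to 96.8 at the stronger Ero1a region and those of Pdia4, Sel1l and Derl1.

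Xbp1, the transcription factor gene whose messenger RNA IRE1 splices, lies at chromosome 11, 5520641 to 5525993. It had a region 1012 to 1058 bp past its start in 2-DG replicates 1 and 2, with folds of 4.95 and 4.98. Ern1, encoding IRE1, had a region inside the gene in the same pair of lists, with folds of 9.28 and 5.69. It lay 41422 to 41449 bp from the lower-coordinate end. Both pairs of peaks were missing from 2-DG replicates 3 and 4, the shorter 2-DG lists.

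Summits of recurrent regions lay close together across the 2-DG lists, which the merging of overlapping peaks favours. Over the 616 regions of the genome called in 4 of 4 2-DG lists and absent from the control lists, the median spread of the 2-DG summits was 44 bp. The quartiles of this spread were 25.75 and 77 bp. The mean within-list percentile of fold had a median of 86.1. The 5 ER gene regions of this class had spreads of 15 bp (Derl1 and Ero1a), 30 bp (Pdia4), 33 bp (Sel1l) and 55 bp (Atf6). By mean percentile they stood at places 62 (Pdia4), 67 (Ero1a), 75 (Sel1l), 118 (Derl1) and 422 (Atf6) of the 616. Of these 5, the Atf6 region alone was an end peak.

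**Figure D5:**
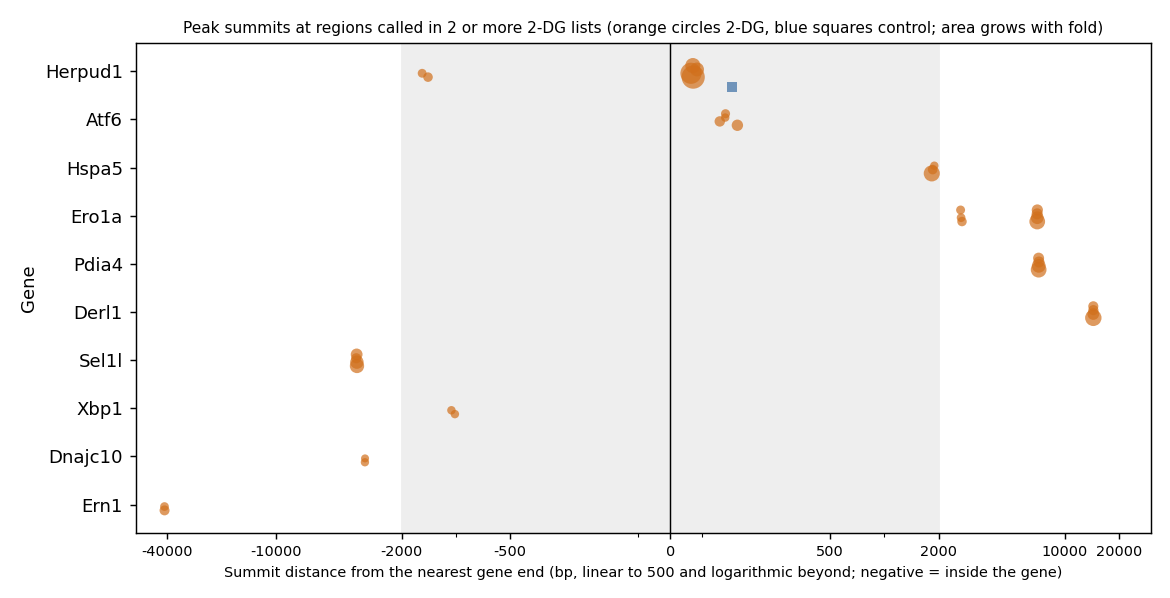
Distance of each summit from the nearest gene end, in bp, at regions called in 2 or more 2-DG lists (orange circles 2-DG, blue square control, area by fold; grey band 2000 bp; axis linear to 500 bp and logarithmic beyond, negative inside the gene). Summits of the 2-DG lists lie within 60 bp of each other at 8 recurrent regions, the control summit at Herpud1 lies apart from them, and the regions at Ero1a, Pdia4, Derl1 and Sel1l lie outside the band.

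Other genes of the ER stress pathway were read the same way. Of 20 other genes of unfolded protein response signalling, 6, 6, 5 and 5 had an end peak in 2-DG replicates 1 to 4 and 2, 0, 1 and 0 in control replicates 1 to 4. The shares of all genes, which also did not overlap, were 2.43% to 5.64% per 2-DG list and 1.26% to 2.05% per control list. The recurrence rule was met by 4 of the 20, Atf3, Atf5, Trib3 and Ppp1r15a, beside 1.13% of all genes. With control peaks allowed, Ddit3 (CHOP) and Ppp1r15b joined them, each present in 4 2-DG lists and in 1 control list. That made 6 of 20, beside 1.83% of all genes. These 6 are transcription factors, a pseudokinase and eIF2 phosphatase subunits of the PERK arm. With lists cut to equal length, 2 of the 20 met the rule, as without 2-DG replicate 1 or 2.

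Of 31 other folding and disulfide enzymes, Dnajb14 and Tmx3 met the rule with 4 of 4 2-DG lists, and Txndc12 had one in 3 of 4 2-DG lists and in 1 control list. Neither Dnajb14 nor Tmx3 met the rule with windows of 500 or 1000 bp. Of 22 other degradation genes, Marchf6, an ER ubiquitin ligase gene, met the rule, again beside 1.13%, with 4 of 4 2-DG lists. Of 20 genes of ER entry and signal peptide removal, 0 had an end peak in any of the 8 lists, where 88.9% of all genes had none. No list met the reverse rule with any gene. With the conflicting lists placed by their descriptions, 0 genes of these 4 lists met the rule for 2-DG, which 16 of all 21631 genes then met. These lists were compiled with earlier results of the data known and carry no test.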

How the data were processed

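ATF4 chromatin immunoprecipitation peak lists of 8 samples were compared, 4 control and 4 2-DG. Alignment was to mm10, with BWA, Picard, MACS2 and DiffBind named and no versions given, per the submitters' processing notes. The deposited lists hold, per summit, fold enrichment (a ratio) with its -log10 q and -log10 p. They also hold a summit offset and a score derived from -log10 q, which was not used. Peak names, per the deposited files, show 1 sample behind each list. Lists hold no read counts, so depth and detection limits are unknown.

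Intervals repeated for several summits were taken once, at the highest summit. Overlap meant at least 1 bp. Gene positions, strand and promoter windows came from RefSeq tables for GRCm38.p6, the assembly mm10 names. All 31 genes matched the gene table and 27 the promoter table. Chromosome Y genes were left out because no list holds that chromosome, which leaves 21631 of 21887 protein-coding genes. The members and lists were chosen with earlier results of these data known.

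Each gene was tested by two-sided Fisher's exact test (SciPy 1.17.1) with Benjamini-Hochberg adjustment over all genes. Genes were named where they had an end peak in at least 2 of 8 lists or a wide-window peak in at least 3; others were named after their values were seen. Other pathway genes were named where an end peak recurred in at least 75% of a treatment's lists, and neighbours where nearer to a described peak. Code was tested on simulated data. Alternatives were stricter -log10 q (2 and 5) and fold (5) limits, equal list lengths (3461 top peaks), summit placement, other widths, leaving out each list, and adding the 2 lists with conflicting labels. The 8 input samples were not used.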

Additional observations from a re-analysis of the deposited data

Results flagged for a closer look

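Control replicate 1 stood apart from the other control lists in the number of ER genes with an end peak, 1 (Herpud1) against 0, 0 and 0. Of 12 groups of 4 lists screened, this was the 1 that held a list far from the others. Chance gives about 1 in 20, and a single value above 0 among zeros always passes.

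One unassigned list, with 2-DG in its title but control in its description, held 6 of the 7 ER gene regions called in at least 3 of 4 2-DG lists and no control list. Its folds were 7.99 at Pdia4, 11.1 at Sel1l, 12.8 at Derl1, 6.60 at Atf6, and 15.3 and 3.47 at the Ero1a regions, and it had no peak at the Hspa5 region. It also held the Herpud1 start region, with a fold of 24.3 and a summit 71 bp upstream. Its counterpart, with the opposite conflict, held 0 of the 7. Which label is right was not tested.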

How the results depend on the processing

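The end rule for 2-DG without control (2 ER genes) gave 1, Atf6, at -log10 q of at least 5, at fold of at least 5, with the conflicting lists added by title, and with windows of 500 or 1000 bp. Of all genes, 245 met the main rule, and 186, 183, 156, 122 and 168 met it in these settings. The rule gave 4 ER genes with windows of 5000 bp, beside 338 of all genes. It gave 0 with the conflicting lists added by description, where 16 of all genes met it. Leaving out each list gave 1 to 3, beside 125 to 291 of all genes. Without 2-DG replicate 1, 2 or 3 it was 1, Atf6, and without control replicate 1 it was 3. With a 2-DG list left out the rule asks for 3 of 3 lists, and with the conflicting lists added for at least 4. In the wide window (3 genes, beside 712 of all genes) the rule gave 5 at -log10 q of at least 5 and at fold of at least 5. Of all genes, 690 and 649 met it there. It gave 0 by description, where 71 of all genes met it. Leaving out each list gave 3 to 6, beside 335 to 949 of all genes. The 6 came without control replicate 4, where 923 of all genes met the rule. The difference in ER genes with an end peak per list (4.0) became 2.5 at fold of at least 5, 2.5 with 500 bp and 5.5 with 5000 bp, and 3.08 to 4.42 without each list. In the wide window the difference (7.5) became 3.8 by description and 6.33 to 8.33 without each list. Regions near ER genes meeting the rule numbered 5 to 8 without each list, against 7. Over all regions the numbers were 627 to 1517, against 1424. For Derl1 the difference in percent of lists turned to -25 with a flank of 10 kb. With a flank of 50 kb the wide rule was again met by 3 genes, beside 951 of all genes. The 3 were Edem3, Atf6 and Ero1a, and the difference in percent of lists for Pdia4 went from 100 to 0. Members passing the per-gene test were 0 in each setting, and 0 with a replicate block of consecutive title numbers, whose smallest exact p is 0.125. With so few lists neither test had room to pass a gene, so these counts say nothing on stability. No source ties the title numbers to shared cultures. Lists without read counts limit all of this: a weak peak missing from a shorter list cannot be told from an unbound site.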

Other observations

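Across all RefSeq promoter windows, 106 had a peak in at least 3 of 4 2-DG lists and in no control list. Of these, 36 (34.0%) hold the CARE letters found at Herpud1, which 3.97% of all windows hold. The ERSE letters are in 0 of the 106 and in 0.119% of all windows, so the 0 is near the share over all windows. Of the 12 windows with ERSE-II letters, 2 had a peak in a 2-DG list, Herpud1 among them, beside 1.33% of all windows. These are descriptions of letters in windows, with no test.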
